A study of Arabidopsis thaliana with 22 samples.

Results

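Short noncoding RNA genes of the nuclear chromosomes were followed in both growth zones of the Arabidopsis root. They are the loci of at most 160 nt on chromosomes 1 to 5 that collected at least 20 reads over all 22 libraries. The rule kept 116 of the 5224 loci listed in the series. A further 119 short nuclear loci had reads but fewer than 20, and 499 of the 734 had no read in any library. The members were thus chosen by their read totals in these libraries, so that they have reads is no finding. Just inside it stood AT2G08755 and AT1G04267 with 20 reads each, and just outside it AT1G06277 with 19 and AT2G08910 with 17.0. Just inside the length limit stood U1.10 (160 nt) and MIR4228 (158 nt), and just outside it AT3G41761 and U1.7 (162 nt each).

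Roots of 11-day-old plants were split into the meristematic-elongation zone (MEZ), where cells divide and lengthen, and the differentiation zone (DZ) above it. The wild type was the accession Ws, and proscoop12 is a mutant in that background whose roots are labelled as longer. Plants received water (control) or 100 nM SCOOP12, a secreted signalling peptide whose precursor is encoded by PROSCOOP12. This gives 8 groups: 3 libraries in each of 6, and 2 libraries in Ws MEZ with SCOOP12 and in Ws DZ with water. All groups share the Ws background and the age, and the sources used here do not name the allele or the number of independent lines. Neither PROSCOOP12 nor any of the 8 zone and cell type markers looked for (such as PLT1 and EXPA7) is among the listed loci, so genotype and zone labels could not be checked by expression.

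Small nucleolar RNAs (snoRNAs) guide chemical modification and processing of ribosomal RNA. Those of the C/D class carry a C box near the start and a D box near the end and direct methylation of ribose. Those of the H/ACA class carry an ACA triplet close to the end and direct the conversion of uridine to pseudouridine. Small nuclear RNAs (snRNAs, such as U1 and U6) are parts of the spliceosome, which removes introns. A miRNA precursor is cut into a mature RNA that silences messenger RNAs matching its sequence.

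The following loci are among those that carry the differences between zones described below, and their sequences are from RefSeq's TAIR10.1 assembly, 5′ to 3′. The first 3 are snoRNAs whose capitals mark the ACA triplet that ends 3 bases before the end of the locus. In SNOR105, capitals mark the letters of the C box (TGATGA) and the D box (CTGA).
snoR86-2: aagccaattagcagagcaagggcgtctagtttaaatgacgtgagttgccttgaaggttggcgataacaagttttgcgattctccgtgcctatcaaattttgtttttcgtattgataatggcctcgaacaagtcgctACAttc
snoR138: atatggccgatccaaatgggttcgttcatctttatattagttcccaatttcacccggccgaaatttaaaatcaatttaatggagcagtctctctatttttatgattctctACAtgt
snoR97-2: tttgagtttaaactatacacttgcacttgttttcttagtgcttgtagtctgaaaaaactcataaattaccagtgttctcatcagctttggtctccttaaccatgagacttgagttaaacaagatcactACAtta
SNOR105: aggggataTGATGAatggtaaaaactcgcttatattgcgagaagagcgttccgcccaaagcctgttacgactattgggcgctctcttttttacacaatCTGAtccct

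These are AT1G06553 (snoR86-2, chr1:11685235-11685376, plus strand) and AT1G07903 (snoR138, chr1:19981637-19981752, plus strand). AT1G04187 (snoR97-2) lies at chr1:875056-875189 and AT1G29071 (SNOR105) at chr1:10151668-10151774, both on the minus strand. Of the miRNA precursors, the mature sequences of the most read loci and of MIR398b are given with the seed, bases 2 to 8, in capitals.
miR415: aACAGAGCagaaacagaacat
miR414: tCATCTTCatcatcatcgtca
miR8181: tGGGGGTGggggggtgacag
miR860: tCAATAGAttggactatgtat
miR398b-3p: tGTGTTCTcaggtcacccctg

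No 2 of these mature sequences share a seed. In the same assembly, miR415 lies at chr1:27987018-27987038 (plus), miR414 at chr1:25137519-25137539 (minus), miR8181 at chr5:21641289-21641308 (minus), miR860 at chr5:9098876-9098896 (plus) and miR398b-3p at chr5:4691107-4691127 (plus).

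By annotated class the 116 loci were 81 snoRNAs, 15 miRNA precursors, 12 snRNAs, 4 antisense RNAs, 2 other noncoding RNAs, 1 miscellaneous RNA and 1 tRNA. They collected 28444 reads, 0.148% of all reads on listed loci. The snoRNAs held 55.2% of these reads, the miRNA precursors 31.7% and the snRNAs 10.7%. The median locus had 80.5 reads over all libraries, and 69 loci had fewer than 100. Reads were concentrated in a few loci: the MIR415 precursor held 20.1% of them, the 4 most read loci 43.8% and the 12 most read 62.8%. Per 100 nt of locus, MIR415 had 5202 reads, snoR150 2411, AtsnoR5b 1185, U1.13p 942 and MIR414 868 over all libraries.

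The letters TGATGA within the first 25 bases together with CTGA within the last 20 were present in 19 of the 81 snoRNAs (23.5%). Among the 191 other short snoRNA loci, below the read minimum, 99 had them (51.8%), and 0 of the 33 loci of other classes with a contiguous sequence did. The letters ACA followed by exactly 3 last bases were present in 25 of the 81 snoRNAs (30.9%) against 23 of those 191 (12%). In short loci of other classes below the minimum, 6 of 403 had them (1.49%). Both searches read the annotated strand only, and no locus matched both. Over all 708 short loci with a contiguous sequence the shares were 16.7% for the C and D box letters and 7.63% for the ACA letters; these are descriptions, with no test.

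Position matters for what a read on these loci can mean, because only noncoding transcripts are listed. Of the 116 loci, 17 overlap a coding gene's exon on the same strand, and these 17 held 38.2% of the reads. MIR415 is one of them, inside an exon of the protein-coding gene AT1G74458; U1.13p lies in PNG1, snoR162 in SUF4, MIR860 in FC1 (a ferrochelatase gene) and MIR8181 in AT5G53340. For such loci, reads of the small RNA and of the host messenger RNA cannot be told apart. A further 12 loci lie opposite a coding exon, 15 lie in an intron of a host gene and 72 overlap none. For 16 loci, fewer than 50% of the 31-base words occur once in the genome, so reads may be shared with copies; among them are AtsnoR5b (0.909%) and U4.2 (7.32%). In addition, 41 of the 116 loci sit in 16 clusters on the same strand, with gaps of at most 500 nt. The counts do not separate an intronic locus from unspliced RNA of its host. Nor do they separate clustered loci from a longer transcript that spans them. The labels describe mRNA libraries. Whether reads on any of the 116 loci, also the 72 that overlap none, come from the mature RNA was not tested.

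The deposited TPM could not be compared between these loci. Salmon's effective length, by which TPM divides, had a median of 7.02 nt over the 28 loci of 103 to 120 nt and 18.9 nt over the 64 loci of 121 to 160 nt. For the 24 loci of 85 to 101 nt it was mostly close to the full length, with a median of 88.5 nt, but for 16 of them it varied more than 10-fold between libraries. Estimated read counts were therefore used throughout.

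**Figure D1:**
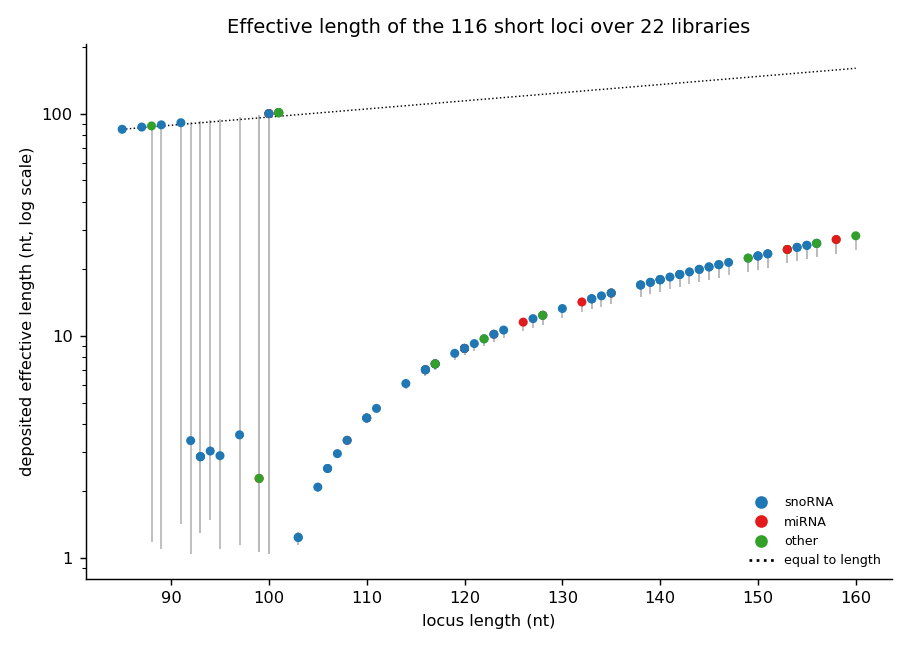
Deposited effective length (nt, log scale) against locus length (nt) for the 116 short loci; points are medians over the 22 libraries, grey bars run from the lowest to the highest library, and the dotted line marks equality. Loci of 103 nt and more sit far below the line, and 16 shorter loci range over more than 10-fold.

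Libraries held 474436 to 1575523 reads on listed loci, of which 723 to 1644 fell on the short loci, and 83 to 109 of the 116 loci had reads. Organellar ribosomal RNA took 17.2% to 21.9% of reads in MEZ libraries and 36.1% to 43.9% in DZ with water. The DZ libraries given SCOOP12 were split: replicate 1 had 46.9% in Ws and 38.2% in proscoop12, and the other 4 had 19.7% to 25.2%. Nothing in the labels ties replicates 1, 3 and 4 to separate cultures; p-values therefore reflect only the spread between these samples, which may be technical. The file names of 2 libraries, Ws DZ SCOOP12 replicate 3 and proscoop12 DZ control replicate 3, give each other's group; the labels were kept. Levels are given as CPM (the unit of edgeR's cpm function), TMM-scaled read counts relative to library size, and 844 loci passed the filter on low counts. Of the 116 short loci, 49 passed (34 snoRNAs, 7 miRNA precursors, 5 snRNAs and 3 others), and the 67 that did not had 20 to 102 reads in all.

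The first comparison asked which short loci differ between the zones of roots given water. Summed over all but MIR415, short loci made up 9.22 to 15 of every 1000 reads outside ribosomal loci in the 6 MEZ water libraries, and 5.40 to 7.14 in the 5 DZ ones. The zones did not overlap on this scale. With MIR415 included they did, at 9.63 to 16.2 in MEZ and 6.49 to 11.3 in DZ. MIR415 went the other way, from 195 to 847 CPM in DZ against 48.5 to 268 CPM in MEZ. As a share of listed reads the summed level of all 116 differed by -0.72 on the log2 scale (DZ minus MEZ), but by 0.0026 with TMM-scaled library sizes. In bulk tissue, fewer cells of a kind and less RNA per cell cannot be told apart.

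**Figure D2:**
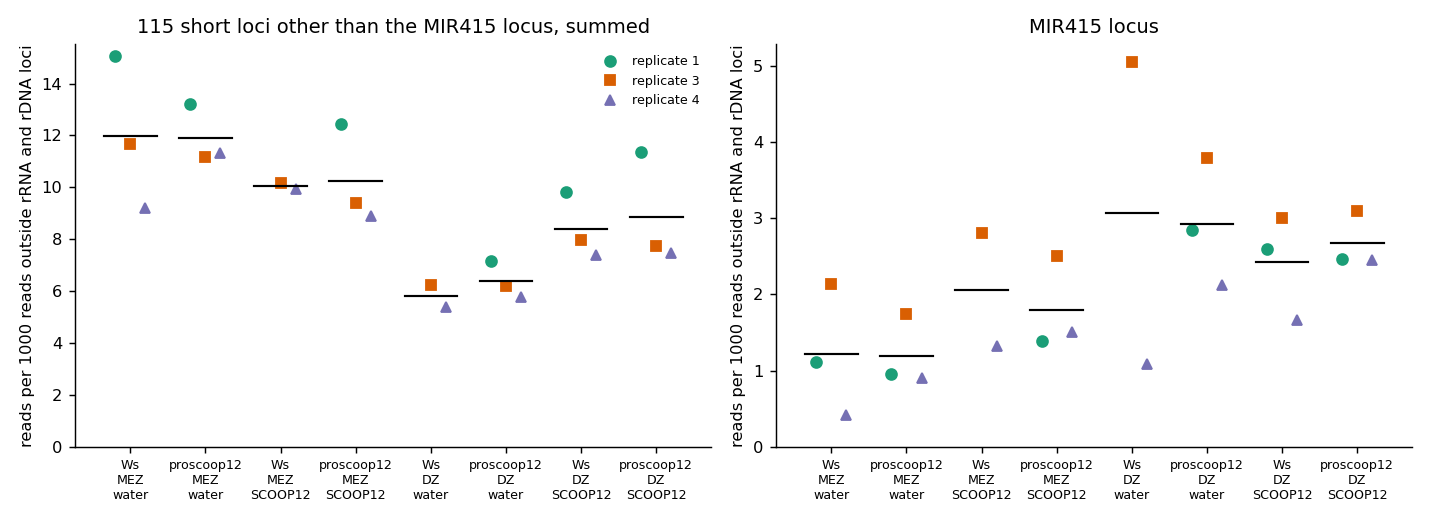
Reads per 1000 reads outside rRNA and rDNA loci in each library, summed over the 115 short loci other than MIR415 (left) and for MIR415 (right), by group; symbols mark replicates and bars the group means. DZ water libraries lie lowest on the left (5.40 to 7.14), and on the right MIR415 is highest in Ws DZ water replicate 3.

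Of the 49 tested loci, 18 passed between the zones in water: 8 were higher in DZ and 10 lower (edgeR quasi-likelihood test, Benjamini-Hochberg adjusted p under 0.05 over all 844 loci). This is 36.7% of them, beside 35.2% of all loci tested (17.5% higher and 17.7% lower; 40.9% with a replicate block), so the share called is near the background. Among snoRNAs 6 of 34 were higher and 9 lower, among miRNA precursors 2 of 7 were higher and 1 lower, and no snRNA of 5 passed. The median log2 difference was -0.33 over the 49 loci and -0.05 over all 844. Without TMM scaling the median moved to -0.76 over all loci and to -0.96 over the 49. Again 18 short loci passed, but 1 was higher and 17 lower. Of these, 11 were among the first 18. Of the 8 loci higher in DZ, only MIR414 still passed without TMM scaling. MIR415, AtsnoR110-1, snoR153, snoR134, AtsnoR97, AtsnoR6-2 and AT1G03502 did not. The share of all loci called each way under this setting is not given here, so these counts have no background beside them. The directions given here are therefore relative to the bulk of listed loci. All 18 kept their sign under every setting tried. The 19 loci named for this comparison had the same direction within replicates 1 and 3 and within replicate 4, which the file names place in different sequencing runs. With replicates 1 and 3 alone, snoR138, SNOR105, SNOR108, snoR85b, AT1G03502 and AtsnoR97, among those 18, did not pass, and AtsnoR6-2 and AtsnoR100a fell under the filter on low counts. Organellar ribosomal RNA also separated these groups, and its part in the differences was not tested.

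Of the loci lower in DZ, snoR86-2 had the largest difference. It stood at 48.5 to 97.8 CPM in the 6 MEZ water libraries (median 70.4). In DZ it stood at 6.90 and 10.4 CPM in Ws, and at 19.1, 21.3 and 7.99 CPM in proscoop12. The zones did not overlap; the log2 difference was -2.58 (SE 0.30, edgeR adjusted p 2.32e-06). Within genotypes it was -3.08 (SE 0.47) in Ws and -2.07 (SE 0.37) in proscoop12. Whether the zone difference differs between genotypes was not tested.

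snoR150 (AT1G07897), the most read snoRNA, ranged from 206 to 391 CPM in MEZ (median 298). In DZ it had 71.3 and 80.5 CPM in Ws and 130, 97.2 and 89.5 CPM in proscoop12. Every DZ library was below every MEZ library, with a log2 difference of -1.74 (SE 0.25, edgeR adjusted p 2.21e-05). Its neighbour snoR138 starts shortly downstream on the same strand and lies in the coding exon of AT1G53542. It had 28.1 to 97.8 CPM in MEZ (median 46.9) and 19.5, 20.8, 34.7, 19.97 and 17.6 CPM in DZ. Here the ranges overlapped, and the log2 difference was -1.30 (SE 0.36, edgeR adjusted p 0.00752).

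AtsnoR5b, in an intron of AT1G29465, had 75.0 to 192 CPM in MEZ (median 147) and 46.0, 27.3, 50.2, 74.6 and 47.9 CPM in DZ. The groups nearly met but did not overlap, and the log2 difference was -1.52 (SE 0.29, edgeR adjusted p 0.000424). Most of the sequence of AtsnoR5b is not unique in the genome, so these reads may be shared with copies. SNOR77 had 10.9 to 31.4 CPM in MEZ (median 19.1) against 10.3, 1.30, 2.39, 7.99 and 3.20 CPM in DZ, again without overlap (log2 difference -1.99, SE 0.46, edgeR adjusted p 0.00189). Without Ws DZ water replicate 3 it was -3.02. SNOR105, the snoRNA with C and D box letters shown above, had 7.45 to 23.8 CPM in MEZ and 2.30, 2.60, 5.98, 3.99 and 3.20 CPM in DZ. It did not overlap either, at a log2 difference of -2.05 (SE 0.56, edgeR adjusted p 0.00681).

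The other lower snoRNAs were AtsnoR100a (log2 difference -2.43), snoR85b (-1.48) and SNOR108 (-1.47). AtsnoR100a is carried in an intron of AT5G08180, a gene for a protein of the L7Ae family, which includes snoRNA-binding proteins. It had few reads, 2.44 to 7.45 CPM in MEZ and 0 to 2.30 CPM in DZ. Its call was lost without Ws DZ water replicate 4 (adjusted p 0.0653 in edgeR), as was that of SNOR108 (adjusted p 0.0678 in edgeR). If the 2 libraries with conflicting file names swap groups, the difference of AtsnoR100a is -1.16 and does not pass (edgeR adjusted p 0.278), and neither do snoR85b and AtsnoR6-2. Without proscoop12 DZ water replicate 3 the difference of AtsnoR100a was -3.38, and without Ws DZ water replicate 3 that of SNOR108 was -2.14. The call of snoR85b was lost on leaving out 9 of the 11 water libraries in turn (edgeR adjusted p 0.0258 to 0.168 over the 11).

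Of the loci higher in DZ, the MIR414 precursor was the clearest. It had 15.6 to 32.6 CPM in MEZ (median 25). In DZ it had 81.6 and 57.2 CPM in Ws and 110, 107 and 68.7 CPM in proscoop12. No library of one zone reached the other, and the log2 difference was 1.70 (SE 0.25, edgeR adjusted p 2.90e-05). It overlaps no coding exon. MIR415 had 847 and 195 CPM in Ws DZ and 451, 686 and 350 CPM in proscoop12 DZ, so that its zones overlapped (log2 difference 1.84, SE 0.39, edgeR adjusted p 0.00106). Without Ws DZ water replicate 3, the highest library, it was 1.14 and still passed (edgeR adjusted p 0.0308). The third miRNA precursor that passed, MIR8181, was lower in DZ: 31.3 to 42.8 CPM in MEZ against 18.4, 18.2, 19.1, 9.32 and 20.8 CPM in DZ. Its zones did not overlap (log2 difference -1.17, SE 0.25, edgeR adjusted p 0.000984).

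snoR153 had 3.73 to 11.3 CPM in MEZ and 36.8, 27.3, 15.6, 14.6 and 12.8 CPM in DZ, with no overlap (log2 difference 1.35, SE 0.37, edgeR adjusted p 0.00692). AtsnoR110-1, in an intron of AT1G26880, a gene for a ribosomal protein of the L34e family, had 11.0 to 18.6 CPM in MEZ and 31, 24.7, 33.5, 41.3 and 24.0 CPM in DZ. It did not overlap either (log2 difference 0.98, SE 0.25, edgeR adjusted p 0.00512). In all, 3 of the 49 loci were higher in DZ without overlap and 7 lower, beside 11.8% and 11.0% of all loci tested.

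**Figure D3:**
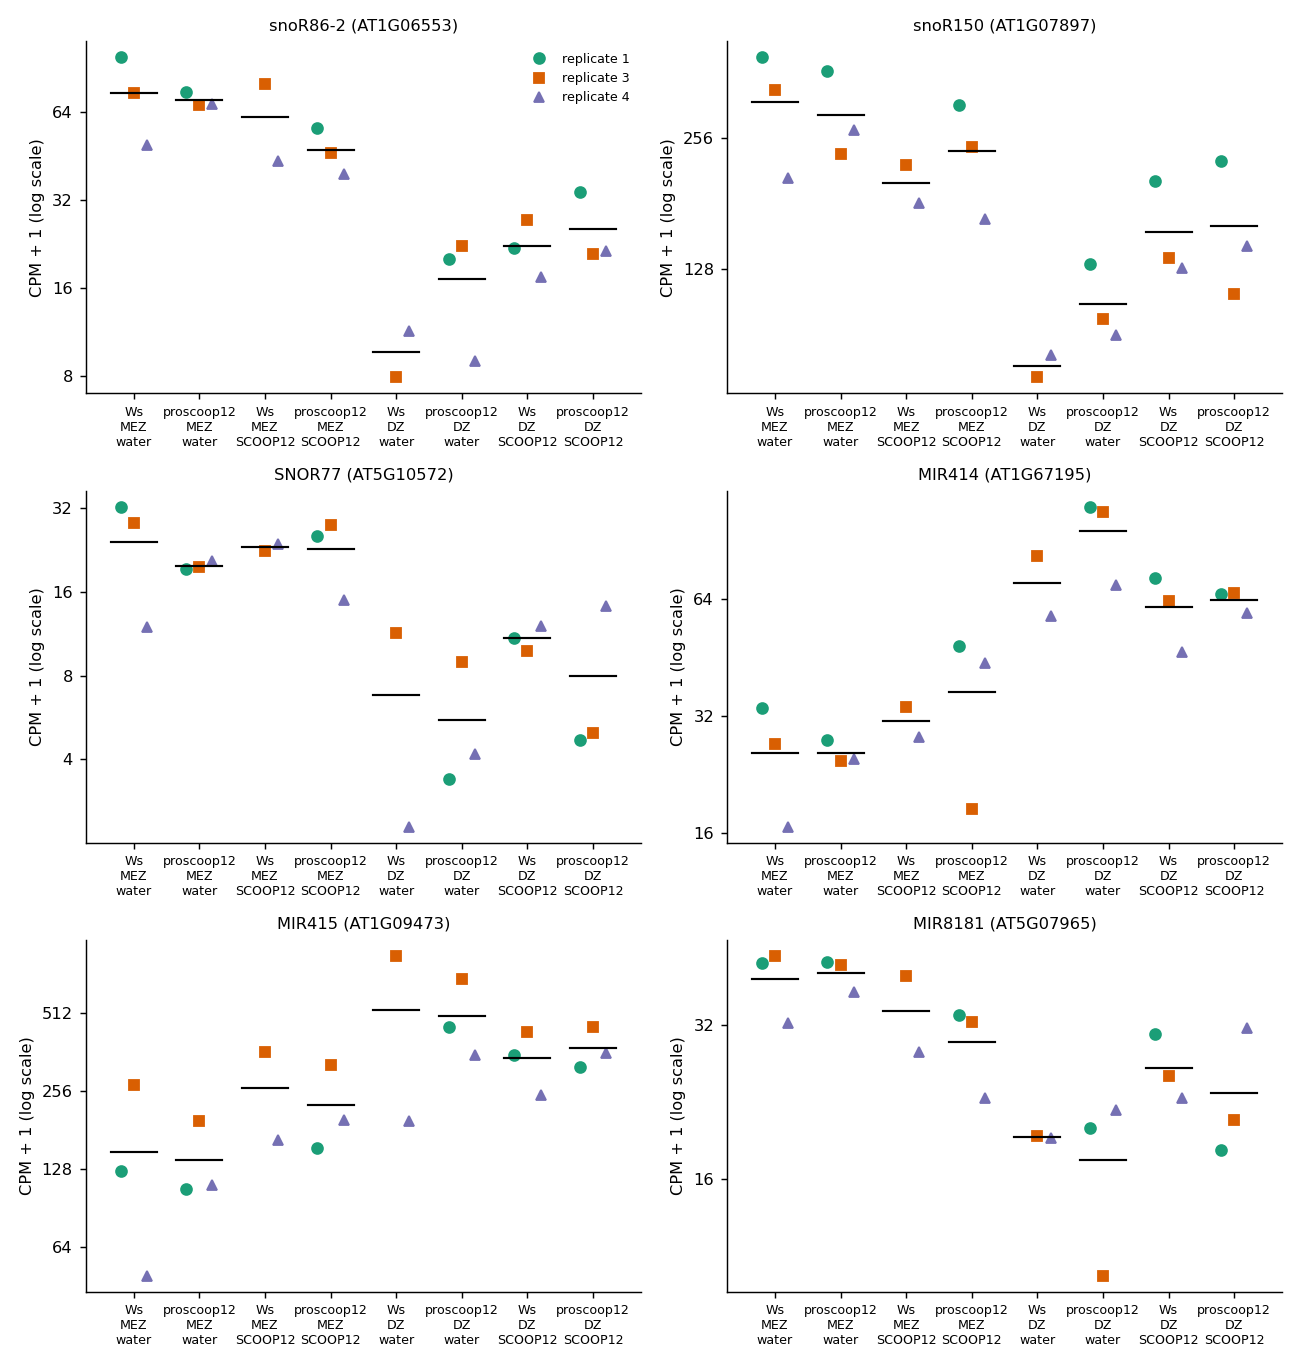
CPM + 1 (log scale) of 6 short loci in each library by group; symbols mark replicates and bars the group means of CPM + 1. The 3 snoRNAs and MIR8181 are lower in DZ water than in MEZ water without overlap, MIR414 is higher without overlap, and MIR415 overlaps between zones.

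The remaining 4 higher loci lie in 2 clusters on chromosome 1 that carry like-named snoRNAs. One, chr1:1008592-1009356 on the plus strand, holds snoR134, AT1G03935, AtsnoR6-2 and AtsnoR97. The other, chr1:875056-875823 on the minus strand, holds snoR97-2, AtsnoR6-1, AT1G03502 and AtsnoR134-1. AtsnoR97 and snoR97-2 are identical at 103 of 108 aligned bases (95.4%) and share a run of 45 bases. Of these 8 loci, 5 were tested and 4 passed in water, all higher in DZ, beside 17.5% of all loci tested. The clusters were picked after their values were seen, so this count is a description. Related copies may share reads, and neighbours may lie on the same transcript, so these loci need not be independent of each other.

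In MEZ water libraries snoR134 had 7.24 to 14.1 CPM. In DZ it had 31, 28.6, 10.8, 25.3 and 16.0 CPM (log2 difference 1.41, SE 0.40, edgeR adjusted p 0.00928). AtsnoR97 had 1.22 to 10.7 CPM in MEZ and 17.2, 15.6, 13.2, 17.3 and 9.59 CPM in DZ (log2 difference 1.35, SE 0.45, edgeR adjusted p 0.0234). For both, only the lowest DZ library fell within the MEZ range. The call of AtsnoR97 was lost without Ws DZ water replicate 3 or Ws MEZ water replicate 4 (edgeR adjusted p 0.0602 and 0.0520). AT1G03502 had 0 to 9.38 CPM in MEZ and 5.33 to 23.4 CPM in DZ (log2 difference 1.96, SE 0.57, edgeR adjusted p 0.0108). Without proscoop12 MEZ water replicate 3 it was 2.59. AtsnoR6-2 was at the threshold (log2 difference 0.997, SE 0.38, edgeR adjusted p 0.0482), and its call was lost on leaving out 9 of the 11 libraries in turn. snoR97-2 did not pass in water at a log2 difference of 1.45 (SE 0.57, edgeR adjusted p 0.0529), but passed without any 1 of Ws DZ replicate 3, Ws MEZ replicate 3 and proscoop12 DZ replicate 3. Without Ws DZ replicate 4 its difference was 0.92 (edgeR adjusted p 0.361). The third pair of such copies, AtsnoR6-3 and AtsnoR134-3 on chromosome 4, had at most 9.50 CPM in any water library.

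**Figure D4:**
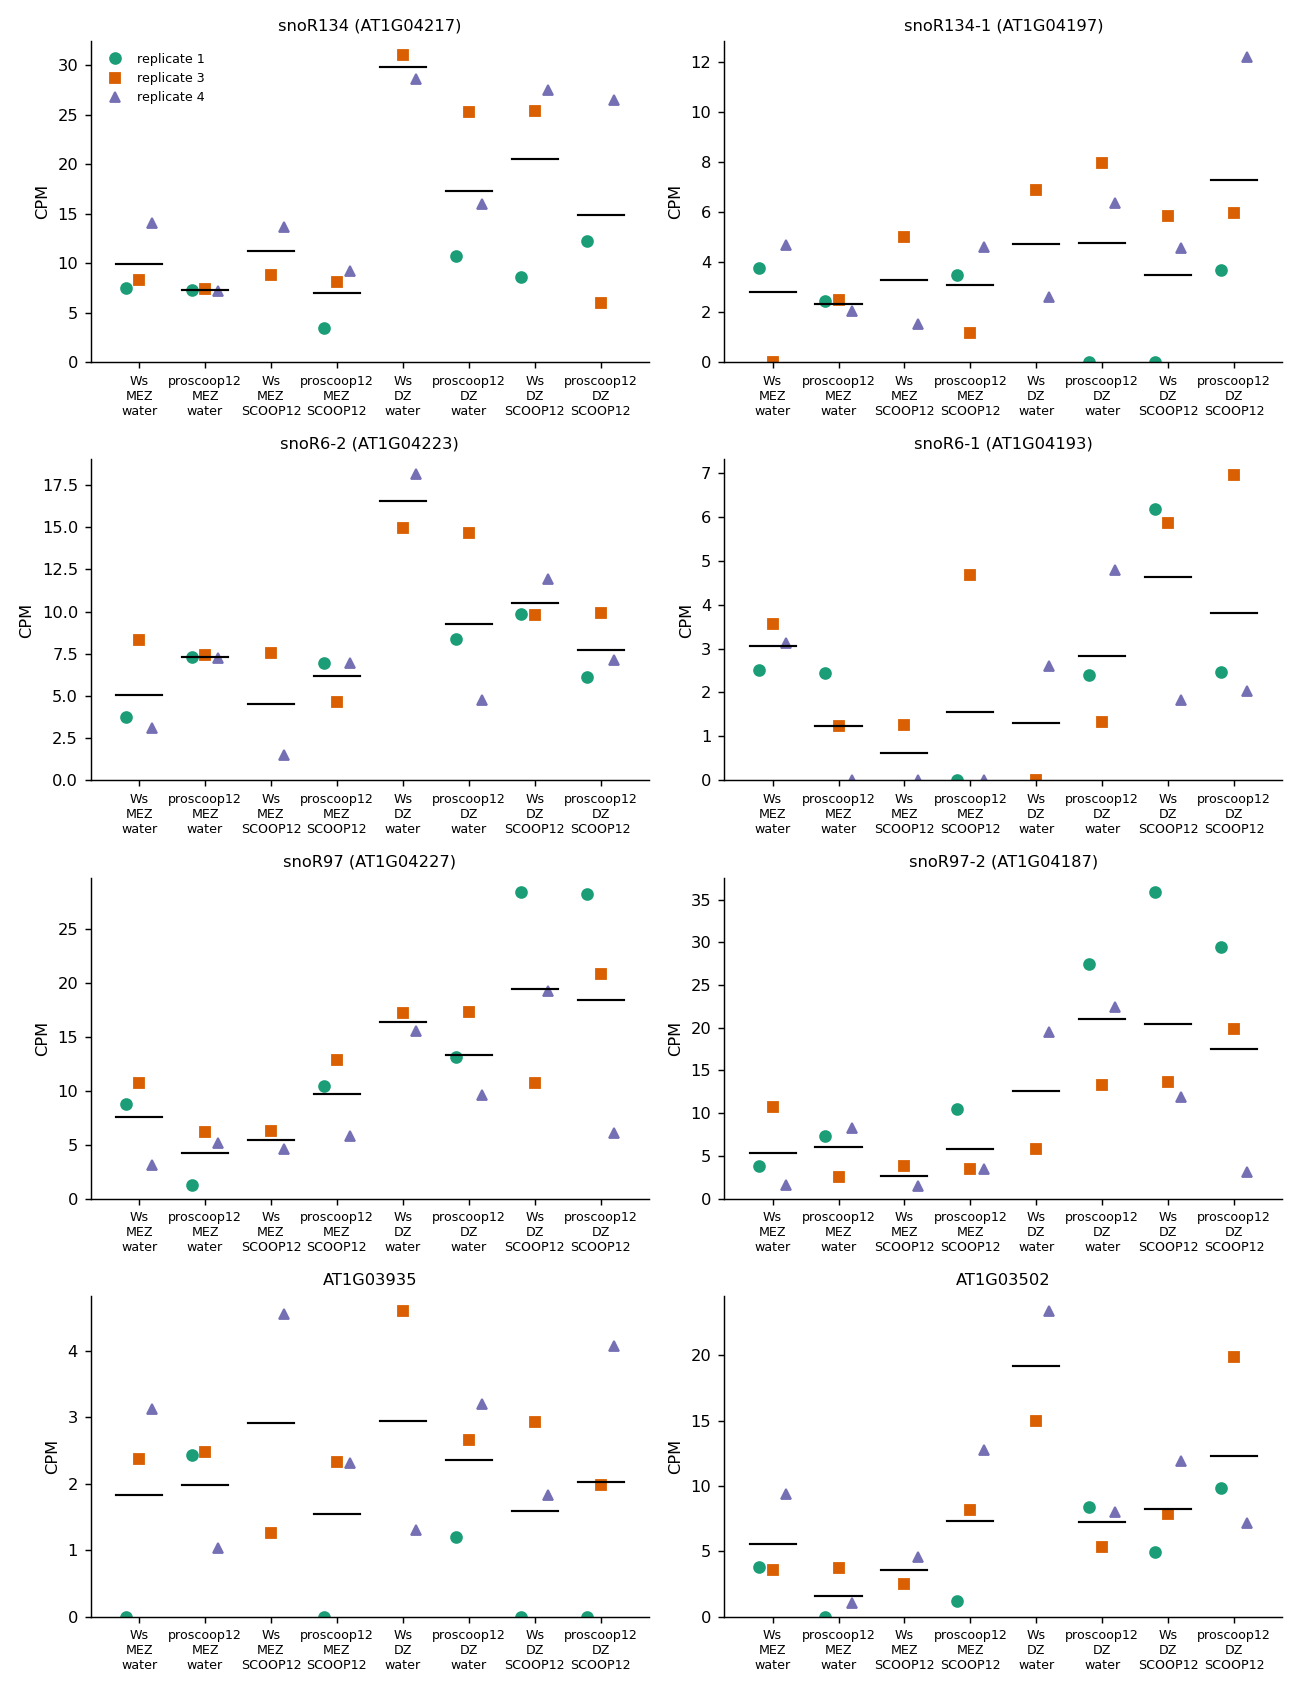
CPM of the 8 loci of the 2 chromosome 1 clusters in each library, like-named copies side by side, with symbols for replicates and bars for group means. AT1G03935 and AT1G03502 are set side by side only as the remaining locus of each cluster. snoR134, AtsnoR97 and snoR97-2 lie higher in DZ than in MEZ in most libraries, while AtsnoR6-1 and AT1G03935 stay under 7 CPM throughout.

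The zones were then compared in roots given SCOOP12. Of the 49 loci, 4 passed, 2 higher and 2 lower in DZ (8.16%, beside 7.70% of all loci tested, 3.91% higher and 3.79% lower). snoR86-2 had 79.2 and 42.5 CPM in Ws MEZ, 55.8, 45.5 and 38.2 in proscoop12 MEZ, 21.0, 26.4 and 16.5 in Ws DZ and 33.1, 19.9 and 20.4 in proscoop12 DZ. The zones did not overlap (log2 difference -1.22, SE 0.26, edgeR adjusted p 0.00724). SNOR77 was also lower without overlap, at 13.9 to 26.8 CPM in MEZ and 3.68 to 13.3 CPM in DZ (log2 difference -1.37, SE 0.41, edgeR adjusted p 0.0396). These were the 2 loci lower without overlap, beside 3.79% of all loci. MIR414 was higher, at 45.9 to 71.7 CPM in DZ and 17.5 to 47.6 CPM in MEZ (log2 difference 0.90, SE 0.26, edgeR adjusted p 0.0335). snoR97-2 was higher at 3.06 to 35.9 CPM against 1.52 to 10.46 CPM (log2 difference 2.18, SE 0.62, edgeR adjusted p 0.0335).

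These calls rested on few libraries. That of snoR86-2 was lost without Ws MEZ SCOOP12 replicate 3 (edgeR adjusted p 0.0927), and those of snoR97-2, MIR414 and SNOR77 on leaving out 7, 6 and 9 of the 11 libraries in turn; without Ws MEZ SCOOP12 replicate 3 the count was 0, and without Ws MEZ SCOOP12 replicate 4 or proscoop12 MEZ SCOOP12 replicate 3 it was 1. It was 2 without Ws DZ SCOOP12 replicate 1, or proscoop12 DZ SCOOP12 replicate 1 or 3. Same-numbered replicates deviated together here, and with the replicate number as a block 9 short loci passed (18.4%, beside 21.7% of all loci). The 5 added were snoR153 (log2 difference 1.18), AtsnoR97 (1.28), snoR134 (1.07), snoR150 (-0.59) and MIR415 (0.68), each with the sign it had in water. Without replicate 1 of both DZ SCOOP12 groups, which stood apart in organellar ribosomal RNA, 2 of the 49 passed. This setting was chosen after the data were seen. The share of all loci called with libraries left out is not given here.

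**Figure D5:**
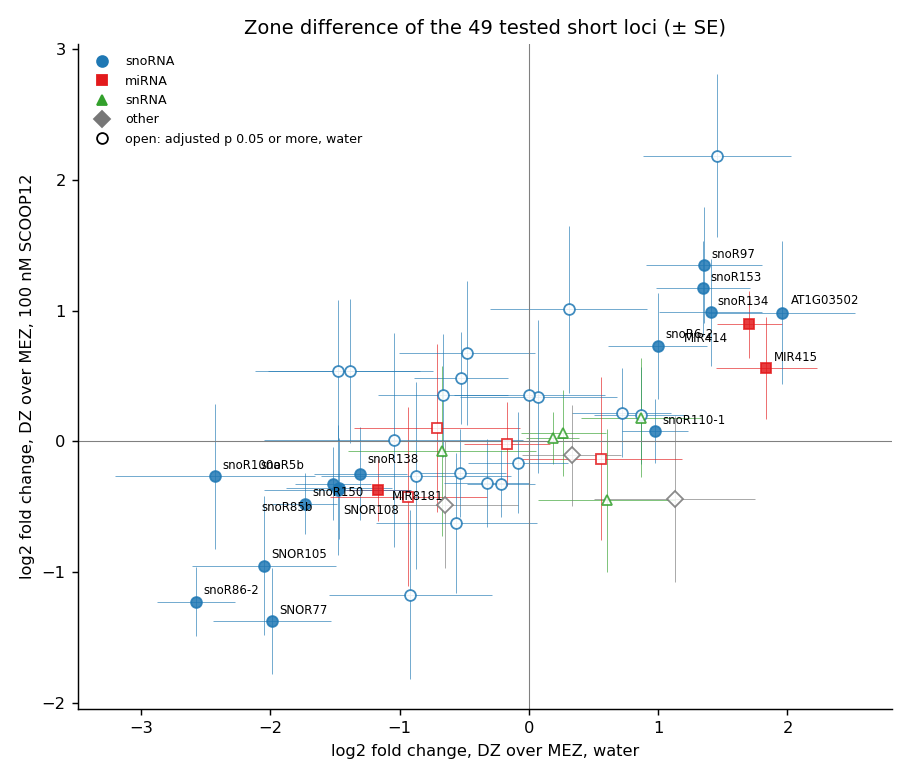
Log2 difference between zones (DZ over MEZ, ± SE) of the 49 tested short loci in water (x) and with 100 nM SCOOP12 (y), with filled symbols and names for the 18 that passed in water. snoR86-2 sits at -2.58 in water and -1.22 with SCOOP12, and MIR414 at 1.70 and 0.90.

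SCOOP12 was next compared with water within each zone. In MEZ, 0 of the 49 short loci passed in edgeR and 0 in DESeq2, beside 2.84% and 4.03% of all loci; 3 had an unadjusted p under 0.05, beside 16.8% of all loci. With the replicate number as a block 2 passed, AtsnoR110-1 and MIR415, beside 7.46% of all loci. AtsnoR110-1 came nearest. It had 13.8, 14.3 and 17.2 CPM in Ws water, 11.0, 18.6 and 17.6 in proscoop12 water, 32.7 and 25.8 in Ws SCOOP12, and 27.9, 36.1 and 20.8 in proscoop12 SCOOP12. Every SCOOP12 library lay above every water library, but the difference did not pass (log2 difference 0.90, SE 0.26, edgeR adjusted p 0.0665). AtsnoR155c likewise did not overlap, at 8.10 to 12.8 CPM with SCOOP12 and 3.13 to 7.13 CPM with water (log2 difference 0.92, SE 0.37, edgeR adjusted p 0.22). These 2 were higher without overlap, beside 2.37% of all loci. snoR138 had the third smallest p (log2 difference -0.78, edgeR adjusted p 0.245). Its direction was not the same in both sequencing runs: the means were 33.5 CPM with SCOOP12 and 66.2 with water in replicates 1 and 3, and 35.04 and 32.2 in replicate 4. Without Ws MEZ water replicate 1 the difference was -0.44. The direction was the same in both runs for the other 3 of the 4 loci named here.

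In DZ, 0 of the 49 passed in edgeR, beside 4.03% of all loci; 7 had an unadjusted p under 0.05, beside 16.6%. DESeq2 called 1, snoR150, beside 4.50%. snoR150 had 203, 135 and 127 CPM in Ws with SCOOP12 and 226, 111 and 144 in proscoop12 with SCOOP12. With water it had 71.3 to 130 CPM. Of the 6 SCOOP12 libraries, 4 lay above all water libraries (log2 difference 0.81, SE 0.24, edgeR adjusted p 0.0732). snoR86-2 had 16.5 to 33.1 CPM with SCOOP12 against 6.90 to 21.3 with water (log2 difference 0.93, SE 0.31, edgeR adjusted p 0.114). AtsnoR100a had 1.83 to 9.82 CPM against 0 to 2.30 CPM (log2 difference 2.43, SE 0.77, edgeR adjusted p 0.0914). If the 2 libraries with conflicting file names swap groups, this difference is 0.81 (edgeR adjusted p 0.889), and without proscoop12 DZ water replicate 3 it was 3.42. In the fit blocked on replicate number, snoR150 and snoR86-2 passed (adjusted p 0.00471 and 0.0361 in edgeR), 4.08% of the 49 beside 9.95% of all loci. snoR150 also passed without proscoop12 DZ SCOOP12 replicate 3 (edgeR adjusted p 0.0403).

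Over the 34 tested snoRNAs, 27 had a positive difference with SCOOP12 in DZ, with a median of 0.33 on the log2 scale. The median was 0.29 over the 49 short loci and 0.08 over all 844. In MEZ, 14 of the 34 snoRNAs were positive, with a median of -0.18. These counts describe loci of which 0 passed on their own in edgeR without a replicate block. With the block, snoR150 and snoR86-2 passed in DZ, and AtsnoR110-1 and MIR415 in MEZ. The share of positive differences over all 844 loci is not given here. The 2 highest values of snoR150 in DZ with SCOOP12 were those of replicate 1. Organellar ribosomal RNA took 46.9% in the Ws library, above all DZ water libraries. In the proscoop12 library it took 38.2%, within the DZ water range of 36.1% to 43.9%. Its part in these values was not tested.

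The difference between zones in the response to SCOOP12 was tested directly. Of the 49, 1 locus passed (2.04%, beside 2.61% of all loci): for snoR150 the SCOOP12 effect in DZ minus that in MEZ was 1.26 on the log2 scale (SE 0.34, edgeR adjusted p 0.0498). Its zone difference was -1.74 in water and -0.47 with SCOOP12. snoR86-2 (1.35, SE 0.40, edgeR adjusted p 0.0755) and AtsnoR5b (1.19, SE 0.40, edgeR adjusted p 0.13) had the next smallest p. Reads of AtsnoR5b may be shared with copies. With the block 4 passed (8.65% of all loci) and with DESeq2 2 (4.27%). The call of snoR150 was lost under 26 of 33 other settings, with edgeR or DESeq2 adjusted p from 0.00483 to 0.559 and a positive difference in all of them.

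Between proscoop12 and Ws, no short locus passed in either zone, averaged over treatments. In MEZ 0 of 49 passed in edgeR and 0 in DESeq2, beside 0.118% of all loci, with 3 at an unadjusted p under 0.05 (2.84% of all loci). In DZ it was 0 and 0, beside 0.118% of all loci, with 2 at an unadjusted p under 0.05 (2.96%). U4.2, an snRNA of the spliceosome, had the smallest p in MEZ, with a log2 difference of -0.85 (proscoop12 minus Ws, SE 0.33, edgeR adjusted p 1.0). It shares most of its sequence with other copies, so reads may be split among them. AT1G74453 had the smallest p in DZ (-1.32, SE 0.52, edgeR adjusted p 0.997), at few reads, and without Ws DZ water replicate 4 it was -0.83. For the interaction of genotype and SCOOP12, 0 of 49 passed in MEZ and in DZ with edgeR and with DESeq2, beside 0.00% of all loci in both zones, with 1 and 2 at an unadjusted p under 0.05 (1.78% and 2.49% of all loci).

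Some abundant short loci showed no call in any of these comparisons. U1.13p, an snRNA copy within PNG1, had 60.6 to 83.8 CPM in MEZ and 70.1 to 105 CPM in DZ with water, a log2 difference of 0.18 (SE 0.20). snoR162, within SUF4, had 26.6 to 62.1 and 28.0 to 44.8 CPM. MIR860 had 10.9 to 56.4 and 24.1 to 63.4 CPM, a difference of -0.17 (SE 0.33). In each the zones overlapped. Among loci of the same kinds but longer than 160 nt, 1 of 8 tested snoRNAs passed between zones in water (AT5G02575, log2 difference -1.53, SE 0.44, edgeR adjusted p 0.00975). Of 19 tested longer snRNAs 1 passed, U2.2* (AT3G08945, -1.02, SE 0.40, edgeR adjusted p 0.0498). Both counts stand beside 35.2% of all loci tested in that comparison. None of the longer ones passed with SCOOP12 against water in edgeR, beside 2.84% of all loci in MEZ and 4.03% in DZ.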

How the data were processed

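RNA-seq libraries from 22 root samples were analysed. The authors quantified reads with Salmon; DESeq2 is also named, both per the submitters' processing notes. The deposited estimated counts per transcript (NumReads, per the file headers) were rounded to whole numbers. The deposited TPM and the other column, the effective length in nt, were used only to describe the files. Per the labels, stranded mRNA libraries gave pairs of 100 nt reads. Not given in the sources used here: Salmon's version, library type, build and annotation. Names, classes, positions and sequences came from RefSeq TAIR10.1 by locus name: all 116 loci matched, 115 with equal length.

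One model of 8 groups over the 22 libraries was used (edgeR 4.0.16, R 4.3.3): TMM, filterByExpr (minimum count 10, minimum total 15), quasi-likelihood F test and Benjamini-Hochberg adjustment over 844 loci, with 0.05 as the threshold. Contrasts average over the third factor. SE is the absolute log2 difference over the square root of F. Alternatives were DESeq2 1.42.0, RLE factors, no TMM, no filter, no ribosomal loci, a replicate block, other sets of replicates, and leaving out each library. Reads on listed loci, which are not the full sequencing depth, numbered 474436 to 1575523 per library. Most members had few of them, so their counting error is large.

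Named loci were the 12 with the highest mean level, those that passed (up to 10 each way), the 3 smallest p where fewer than 3 passed, the top locus of each class of at least 3, the threshold neighbours, and up to 5 that passed only with the block or DESeq2. Members, lists and rules were chosen with earlier results of these data known. The 2 chromosome 1 clusters, AtsnoR155c's groups and MIR398b's replicates were described after their values were seen.

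After group means were removed, same-numbered libraries correlated at over 0.1 in every pair for zone with SCOOP12 (0.157 to 0.648). The same held for the DZ comparisons (0.153 to 0.648). The numbers were taken to pair samples there, but the main fit ignored this pairing in every comparison. Only the alternative fit with a replicate block used it. Pairing comes from this check; the labels name no shared batch. The sequence of snoR150 is not reported here.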

Additional observations from a re-analysis of the deposited data

Results flagged for a closer look

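The response of snoR150 (AT1G07897) to SCOOP12 differed between the zones by a test of the difference itself: the log2 effect in DZ minus that in MEZ was 1.26 (SE 0.34, edgeR quasi-likelihood adjusted p 0.0498). In DZ 4 of 6 SCOOP12 libraries were above all 5 water libraries; in MEZ the groups overlapped, at 165.5 to 304 CPM with SCOOP12 and 206 to 391 CPM with water. The call was lost under 26 of 33 other settings.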

How the results depend on the processing

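Between zones in water, 16 to 20 short loci passed on leaving out each library; the summed log2 difference ran from -0.96 to -0.47, and TMM-scaled sizes gave 0.0026. With SCOOP12 the zone count ran from 0 to 5 on leaving out each library. It was 6 with DESeq2 (12.2%, beside 9.83% of all loci), 5 with RLE factors, 1 without TMM, 2 with replicates 1 and 3 only, 1 with replicates 3 and 4 only, 2 without the 2 libraries whose names and labels differ, and 2 without replicate 1 of both DZ SCOOP12 groups, a setting added after the data were seen. For the zone by SCOOP12 difference the count ran from 0 to 2 on leaving out each library. It was 2 with DESeq2 and 0 without TMM, without ribosomal loci, with replicates 1 and 3 only, with replicates 3 and 4 only, with those 2 libraries left out or exchanged, and without replicate 1 of both DZ SCOOP12 groups. For SCOOP12 in DZ DESeq2 called 1, and leaving out each library gave 0 to 1. In MEZ and between genotypes it gave 0 each time. Apart from DESeq2, the share of all loci called under these settings is not given here. Those counts therefore have no background beside them. The other summed log2 differences ran from -0.23 to 0.08 (zone, SCOOP12), -0.53 to -0.22 (SCOOP12 in MEZ), 0.02 to 0.50 (in DZ), -0.01 to 0.31 (genotype in MEZ) and -0.06 to 0.42 (in DZ).

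With the replicate block the counts were 19 for zone in water, 9 for zone with SCOOP12, 2 for SCOOP12 in MEZ (AtsnoR110-1 and MIR415), 2 for SCOOP12 in DZ, 4 for zone by SCOOP12 and 0 for the genotype comparisons. In MEZ, in water between zones and in zone by SCOOP12 the replicate numbers did not pair in every case (lowest correlation 0.0201, 0.0917 and 0.0201).

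Of the values of single named loci under all settings, 973 stayed on the same side of the threshold, 109 lost it, 36 gained it and 0 changed sign. The causes were not tested. Few reads limit the rest: 67 of the 116 loci were not tested.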

Other observations

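The MIR398b precursor separated the replicates rather than the groups. In the 6 replicate 1 libraries it had 1.24 to 10.03 CPM, and in the 16 libraries of replicates 3 and 4 it had 14.3 to 62.3 CPM, without overlap. This held in every zone, genotype and treatment that has a replicate 1. It was the only short locus of 49 with this pattern in that direction, and 3 of all 844 loci (0.355%) had it; 2 of 844 (0.237%) had replicate 1 above all others, none of them a short locus. miR398 is known in Arabidopsis for silencing copper/zinc superoxide dismutase genes. The precursor lies opposite an exon of AT5G14550 over its whole 116 nt. The sources used here give no growth conditions per replicate, and the pattern was noticed after the values were seen.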
